A study of Caenorhabditis elegans with 46 samples.

Results

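DPL-1 and EFL-1 are the *C. elegans* E2F-DP heterodimer, and their peaks in late embryos that lack the pocket protein LIN-35 were compared with each other. The rule took the DPL-1 ChIP-seq and EFL-1 ChIP-seq libraries of the *lin-35(n745)* genotype, 3 libraries for each protein, which make up 6 of the 46 samples of the series, and the deposited peak list of each protein. The DPL-1 list held 995 peaks and the EFL-1 list 783, which makes 1778 of the 21925 peaks in 13 lists. Merging overlapping peaks of both lists gave 972 regions. Of these, 715 held peaks of both proteins and are called E2F-DP regions here, 229 held DPL-1 alone, and 28 held EFL-1 alone.

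The series mapped subunits of the DRM complex in late embryos of wild type (N2) and of *lin-35(n745)*, a protein-null allele. Both genotypes were whole late embryos, bleached from gravid worms and aged for up to 3.5 hours, after 72 hours of culture for wild type and 96 hours for *lin-35* null. No drug or transgene was used in either. The mutation is present in every cell, and whole embryos mix all tissues, so the peaks are those of the mixture. DPL-1 was precipitated with antibody Q3599 and EFL-1 with antibody Q3590, both from SDIX/Novus, and all *lin-35* null libraries were made with the TruSeq protocol. The wild-type lists used below for comparison combine libraries of this protocol and of an older one that selected fragments on a gel, so genotype and library protocol cannot be fully told apart.

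E2F and DP proteins bind DNA as a dimer, in which each partner contributes to the contact with DNA, and neither is thought to bind E2F sites well alone. The dimer joins a pocket protein, which in worms is LIN-35, and the pocket protein in turn joins MuvB, which holds LIN-9, LIN-37, LIN-52, LIN-53, and the DNA-binding subunit LIN-54. Together they form DRM, the worm counterpart of the mammalian DREAM complex, known as a repressor of cell cycle genes. EFL-1 is the partner that contacts the pocket protein. The question here was how far the partners still coincide on chromatin when LIN-35 is absent.

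ChIP-seq finds DNA bound by a protein through an antibody that pulls the protein down with its fragments, which are then sequenced, and peaks mark where they are more abundant than in input. The DPL-1 and EFL-1 lists each pool the 3 libraries of the protein, while the labels map 2 libraries to the wild-type LIN-35 list and 1 to the wild-type LIN-37 list. Every peak carries an SPP signal value, a measure of its height with a scale of its own in each list. The DPL-1 values ran from 321 to 20350 with a median of 772, and the EFL-1 values from 454 to 34389 with a median of 1182. Heights were therefore compared as percentiles, where 100 is the highest peak of a list. Read counts and values of single libraries are not part of the lists, so the depth behind a peak is unknown and no replicate error or test can be given. The study described the signal of 1 of its *lin-35* null extracts as apparently elevated beside the others, and the lists cannot be split to leave it out. With that extract removed, the study called more DRM peaks decreased in *lin-35* null embryos. Its part in the peaks counted as kept here was not tested. Intervals below are 95% Wilson intervals that cover counting error only.

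Nearly every EFL-1 peak sat on a DPL-1 peak, while a considerable set of DPL-1 peaks had no EFL-1 peak in the list. By an overlap of at least 1 bp, 754 of 783 EFL-1 peaks (96.3%, interval 94.7% to 97.4%) were shared with DPL-1. Of 995 DPL-1 peaks, 765 (76.9%, interval 74.2% to 79.4%) were shared with EFL-1. When the DPL-1 list was shortened to its 783 highest peaks, 706 of them (90.2%) were shared, and 713 EFL-1 peaks (91.1%) kept a partner. At equal length both shares count nearly the same overlaps over the same number of peaks, so their closeness follows from the cut. In wild type the imbalance ran the other way, with 1561 of 1771 DPL-1 peaks (88.1%) and 1611 of 2119 EFL-1 peaks (76.0%) shared. The wild-type EFL-1 list was the longer of its pair.

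Peaks without the partner were mostly low peaks of their list. The median percentile was 61.4 for shared DPL-1 peaks and 15.6 for the 230 that were not shared, and 51.02 against 13.5 for the EFL-1 peaks, of which 29 were not shared. All 249 DPL-1 peaks in the highest 25% of the list had an EFL-1 peak, as did 244 of 249 in the next 25%, 198 of 249 in the next, and 74 of 248 in the lowest. EFL-1 peaks were shared in 196 of 196, 189 of 196, 193 of 196, and 176 of 195 cases in the same order. Of the 29 unshared EFL-1 peaks, 7 thus stood in the upper middle of the list, up to percentile 70.1, and when both lists dropped their lowest 25%, the median of the 16 that were then unshared was 46.8. A list ends at a threshold, so a missing partner peak says only that the partner did not pass it. Few unshared DPL-1 peaks lay just beside an EFL-1 peak. The nearest EFL-1 middle lay at a median of 33735 bp from an unshared DPL-1 peak, and 9 of 230 had one within 2000 bp. A reference distance for other sites without an EFL-1 peak was not computed.

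**Figure D1:**
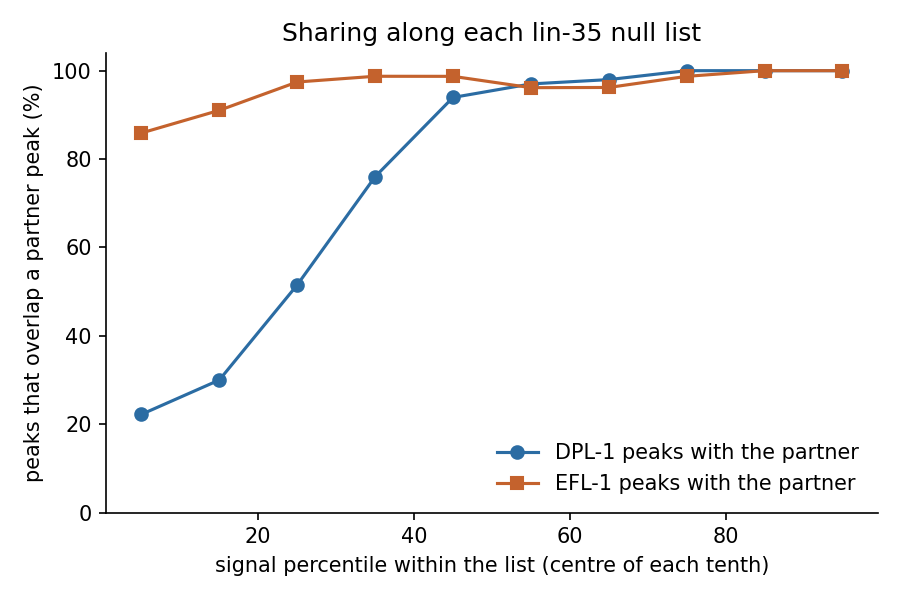
Share of peaks that overlap a partner peak (vertical axis, percent) against the signal percentile within the list (horizontal axis, in steps of 10% of the list) for DPL-1 (circles) and EFL-1 (squares) in *lin-35* null embryos. The DPL-1 curve climbs from 22.2% in the lowest step to 93.9% in the fifth, and the EFL-1 curve starts at 85.9%.

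Where the partners shared a site, their middles nearly coincided and their heights ranked alike. The lists formed 725 pairs on the autosomes and 20 on X in which each peak was the nearest overlapping partner of the other. The Spearman correlation of the percentiles over all of these pairs was 0.91, and the Pearson correlation of the log10 signal values was 0.94. Pairs are sites and not replicates, and the labels give the DPL-1 and EFL-1 libraries the same 3 *lin-35* null extracts as input controls, so these values describe lists that share that control. The part of the shared extracts in the likeness of ranks and middles was not tested. The distance between the middles had a median of 6 bp, with quartiles of 2 and 14 bp, and 95% of the pairs lay within 34 bp. The EFL-1 middle lay at the higher coordinate in 345 pairs, at the lower in 337, and on the same base in 63. The farthest pair was 194 bp apart. In wild type, 1556 pairs gave a Spearman correlation of 0.92 and a median distance of 6.5 bp with quartiles of 2 and 15 bp, so the values without LIN-35 stood close to those with it.

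The pairing was tightest at high peaks. In the highest 25% of the DPL-1 list, the median distance was 3 bp over 248 pairs, with 209 pairs within 10 bp. In the lowest 25% it was 14.5 bp over 60 pairs, with 21 within 10 bp. The rank correlation within these groups was 0.94 and 0.21. It was 0.38 and 0.62 in the groups between, so the ranks were most alike among the highest peaks.

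DPL-1 also stood closer to EFL-1 than to MuvB subunits. At 623 DPL-1 peaks where all 6 subunits mapped without LIN-35 had a peak, the median distance of middles was 5 bp from DPL-1 to EFL-1, 8 bp to LIN-52, 9 bp to LIN-37, 9 bp to LIN-54, and 13 bp to LIN-9. The Spearman correlation of percentiles with DPL-1 was 0.92 for EFL-1, 0.85 for LIN-52, 0.84 for LIN-54, and 0.83 each for LIN-37 and LIN-9. EFL-1 ranked less like the MuvB subunits than DPL-1 did, with correlations from 0.78 for LIN-37 and LIN-54 to 0.79 for LIN-52 and LIN-9. LIN-54 binds DNA itself, and its middle was no closer to DPL-1 than that of LIN-52, a subunit that joins MuvB to the pocket protein. Peaks were 550 bp wide in the DPL-1 list and up to 630 bp wide in the others, and the part of width in these distances was not tested.

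**Figure D2:**
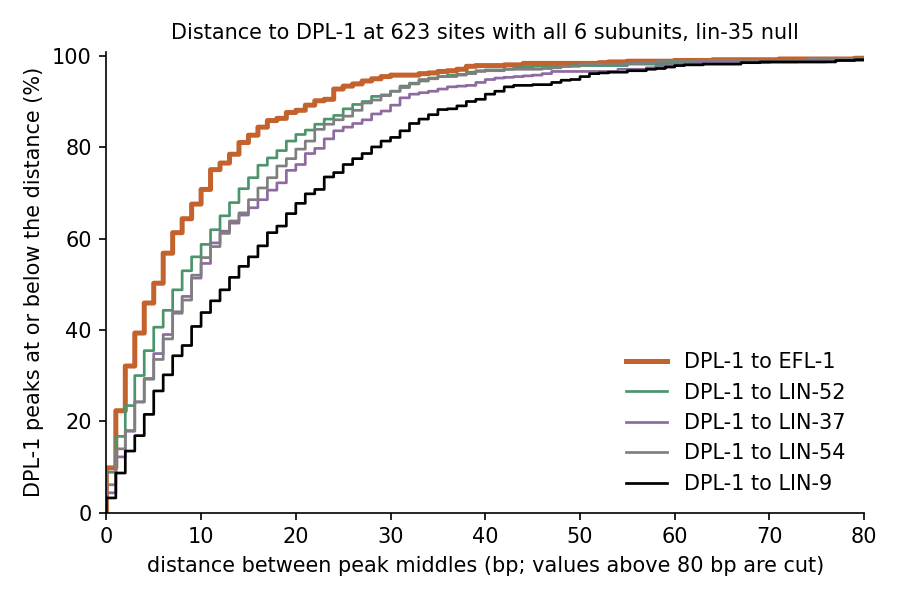
Cumulative share of DPL-1 peaks (vertical axis, percent) whose middle lies within a given distance (horizontal axis, bp) of the middle of the EFL-1 peak (thick line) or of a MuvB subunit peak (thin lines), at 623 sites with all 6 subunits in *lin-35* null embryos. The EFL-1 line rises first, with a median of 5 bp against 8 to 13 bp for MuvB subunits.

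The strongest E2F-DP regions without LIN-35 lay mostly at autosomal promoters. They were chosen by the highest mean percentile, so both partners stood near the top of their lists. The highest peak of both lists was the same site, at the promoter of *sti-1*, which encodes a co-chaperone of the Hop family (chrV:773131-773720, ce10). Its signal value was 20350 for DPL-1 and 34389 for EFL-1, and the middles fell on the same base. The second site of both lists was the divergent promoter of *K01G5.10* and *K01G5.9* (chrIII:10758857-10759446), at 17320 for DPL-1 and 26538 for EFL-1. Next by mean percentile came the divergent promoter of *W02D9.2* and *pri-2* (14518 and 18798), where *pri-2* encodes a subunit of DNA primase. The divergent promoter of *T23F6.3* and *rbd-1*, an RNA-binding protein of ribosome biogenesis, followed with 12365 and 19511. The ranks of the partners at these 4 sites differed by less than 1 percentile point, as their mean percentiles require.

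Further regions among the 20 strongest included *tba-2*, an alpha-tubulin (13540 for DPL-1 and 16626 for EFL-1), *cdc-48.1*, an ATPase that extracts proteins from complexes (13843 and 16128), and *imb-3*, an importin beta protein of nuclear import (9274 and 15139). The promoter of *mes-2*, the histone methyltransferase subunit of the worm Polycomb repressive complex, stood at 10370 and 12839. That of *npp-19*, a nuclear pore protein, stood at 8127 and 9899, and that of *emo-1*, a subunit of the protein-conducting channel of the endoplasmic reticulum, at 7624 and 9766. The lowest of the 20 was *ZK418.5*, at 8172 and 8760. The others were *Y53F4B.11* with *Y53F4B.9*, *F48A11.4*, *ego-2*, *Y54F10BM.13* with *Y54F10BM.1*, *E01B7.2*, *Y71G10AL.1*, *F59A6.11* with *F59A6.5*, and *Y55F3AM.6*, all at promoters, and *F56D5.6*, where the site lies in an intron.

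Most other traits of these 20 regions were those of high E2F-DP regions in general. All had a gene-named site, 13 at a single promoter, 6 between divergent genes, and 1 in an intron, and none was on X. Of all 715 E2F-DP regions, 90.8% had a gene name and 97.3% were autosomal, so these counts are near the general shares. The middles at the 20 regions were at most 15 bp apart. The percentiles of the partners differed by at most 1.33 points, a range that the choice by mean percentile limits. In the lists that did not choose them, every one of the 20 had a peak of all 4 MuvB subunits without LIN-35, at percentiles of at least 82.5, and a wild-type LIN-35 peak at a percentile of at least 91.2. Among the 178 E2F-DP regions in the highest 25% by mean percentile, 176 had all 4 MuvB subunits and 177 a wild-type LIN-35 peak, so neither trait is particular to the 20. The cut at 20 fell between mean percentiles of 97.73 for *ZK418.5* and 97.57 for the next region.

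**Figure D3:**
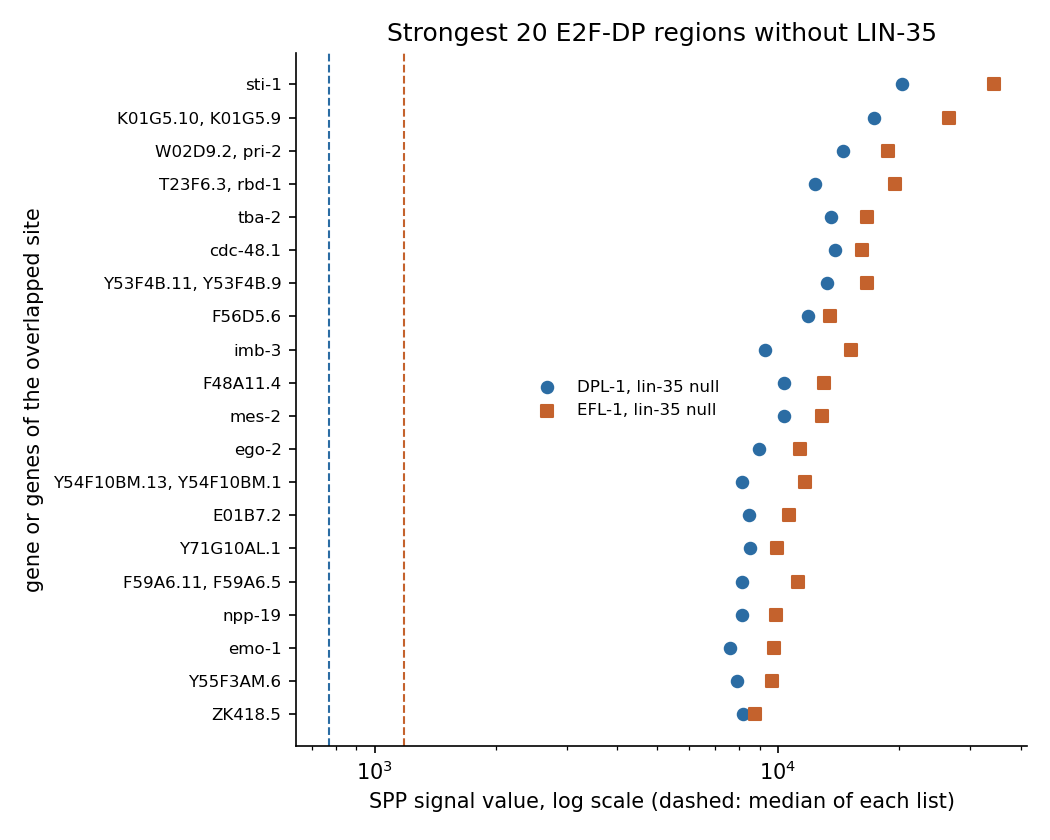
SPP signal value (horizontal axis, log scale, in the units of each list) of DPL-1 (circles) and EFL-1 (squares) at the 20 E2F-DP regions of highest mean percentile, named by the gene or genes of the site. Dashed lines mark the list medians of 772 and 1182, and all 20 regions lie at or above 7624 for DPL-1 and 8760 for EFL-1; the scales of the lists are not comparable with each other.

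MuvB subunits were present at most regions that kept both partners. At least 3 MuvB subunits of the 4 had a peak without LIN-35 at 657 of 715 E2F-DP regions (91.9%), 145 of 229 regions with DPL-1 alone (63.3%), and 8 of 28 with EFL-1 alone (28.6%). Over all 1610 merged regions of the 6 *lin-35* null lists the share was 68.9%. LIN-9, whose list is the longest of the MuvB lists, was found most often, at 690 E2F-DP regions (96.5%), beside 92.4% of the 1610. LIN-37, whose list is the shortest, was found least often, at 609 (85.2%), beside 53.5% of the 1610. No MuvB peak at all was found at 19 E2F-DP regions (2.66%). It was also missing at 32 of 229 regions with DPL-1 alone and at 11 of 28 with EFL-1 alone. Among the 1610 merged regions, 62 (3.85%) had no MuvB peak. That share is no reference for the 19, because a merged region without DPL-1 and EFL-1 holds a MuvB peak by construction. The 19 were low sites, with median percentiles of 24.5 for DPL-1 and 12.9 for EFL-1. A wild-type LIN-35 peak overlapped 18 of the 19, beside 94.1% of all 715 E2F-DP regions. No E2F-DP region in the highest 25% by mean percentile was without MuvB, against 16 of 178 in the lowest 25%.

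Sites with E2F-DP were mostly sites where LIN-35 sat in wild type. A wild-type LIN-35 peak overlapped 673 of 715 E2F-DP regions (94.1%), 189 of 229 DPL-1 regions (82.5%), and 10 of 28 EFL-1 regions (35.7%), beside 79.1% of all 1610 merged regions. Wild-type peaks of both partners overlapped 673 E2F-DP regions (94.1%), beside 68.9% of the 1610, and 3 (0.420%) had no wild-type peak of any subunit, beside 9.19% of the 1610. The LIN-35 peaks at E2F-DP regions were high in their list, with a median percentile of 82.5, against 59.2 at DPL-1 regions. The heights were related less closely to wild type than to each other. Across E2F-DP regions the Spearman correlation of DPL-1 with wild-type DPL-1 was 0.62 over 680 regions, and that of EFL-1 with wild-type EFL-1 was 0.62 over 694.

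Regions with a single partner differed by which partner it was. Of the 229 regions with DPL-1 alone, 172 (75.1%) had wild-type peaks of both partners, beside 68.9% of all 1610 merged regions, and their median wild-type percentiles were 47.4 for DPL-1 and 46.5 for EFL-1. Of the 28 regions with EFL-1 alone, 26 had a wild-type EFL-1 peak and 9 a wild-type DPL-1 peak, beside 77.6% and 74.2% of the 1610. Because membership follows from the thresholds of both lists, these counts describe the regions and were not tested.

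**Figure D4:**
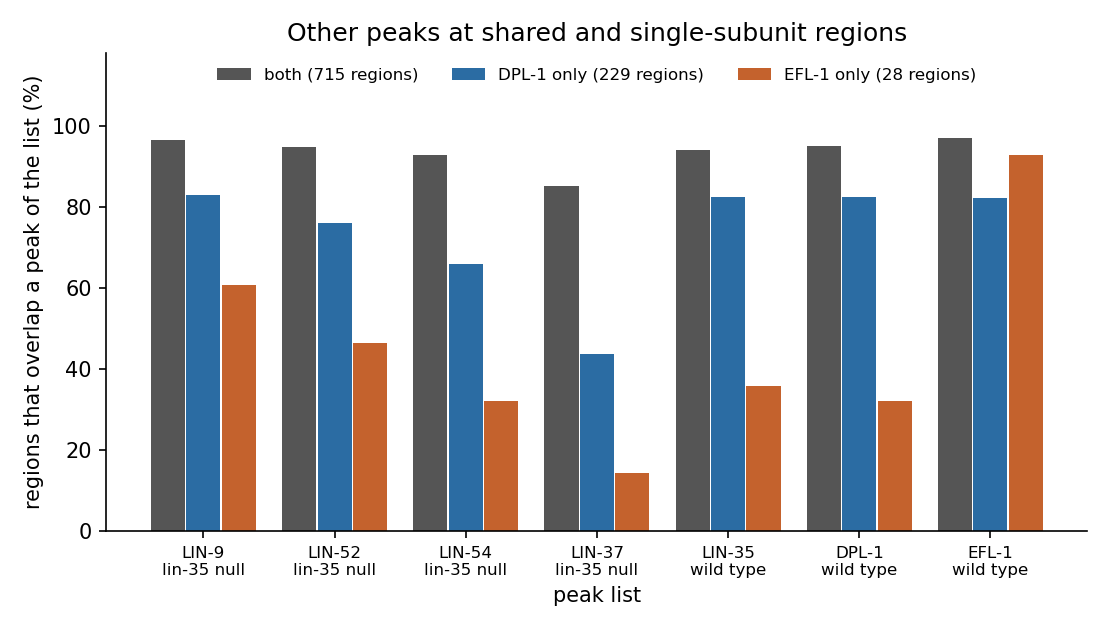
Share of regions (vertical axis, percent) that overlap a peak of each other list (horizontal axis) for 715 regions with both partners, 229 with DPL-1 alone, and 28 with EFL-1 alone in *lin-35* null embryos. Regions with EFL-1 alone are lowest in every list but the wild-type EFL-1 list, where they stand at 92.9%.

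The highest peaks with a single partner were of different kinds. Among DPL-1 peaks without EFL-1, the highest lay at chrI:9149147-9149696 with a signal value of 1373 (percentile 66.7), 952 bp from the nearest EFL-1 middle. The next was at chrV:6246412-6246961 with 1170 (63.7). These 2 peaks and the fifth, at chrX:12188140-12188689 with 788 (51.2), overlapped a wild-type DPL-1 peak, at percentiles of 59.7, 64.1, and 42.9, and no peak of any other subunit in either genotype. The third and the fourth were DRM-type sites. They lay at the end of *H05C05.3* (chrIII:2966474-2967023, 993, percentile 59.1) and in an intergenic stretch assigned to *sfxn-1.5* (chrX:11662417-11662966, 792, percentile 51.7), each with peaks of all 4 MuvB subunits without LIN-35 and with a wild-type EFL-1 peak.

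The 5 highest EFL-1 peaks without DPL-1 were all on X. They lay at chrX:16681753-16682342 with a signal value of 2446 (percentile 70.1), chrX:5429222-5429811 with 2064 (67.0), chrX:11937155-11937744 with 1719 (62.8), chrX:1626832-1627421 with 1619 (60.2), and chrX:1344755-1345344 with 1591 (59.9). Each overlapped a wild-type EFL-1 peak, at percentiles from 73.8 to 85.5, and none overlapped a wild-type DPL-1 or LIN-35 peak. Wild-type peaks of these proteins overlapped 77.6%, 74.2%, and 79.1% of all 1610 merged regions. Each overlapped a LIN-9 peak without LIN-35, at percentiles from 3.35 to 40.2, and LIN-9 peaks overlapped 92.4% of the 1610. Except at chrX:1344755-1345344, each also overlapped a LIN-52 peak without LIN-35, and none overlapped a LIN-37 or LIN-54 peak. None overlaps a site to which the study assigned a gene.

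X stood out in both lists. It held 36 of the DPL-1 peaks and 34 of the EFL-1 peaks, and 20 (55.6%) and 21 (61.8%) of these were shared, against 77.7% of 959 and 97.9% of 749 on the autosomes. Of the 28 regions with EFL-1 alone, 13 were on X, where 19 of the 715 E2F-DP regions lay. All 13 had a wild-type EFL-1 peak, and 2 had a wild-type LIN-35 peak. On the autosomes, 13 of 15 such regions had a wild-type EFL-1 peak and 8 a wild-type LIN-35 peak. In wild type, 69 of 133 EFL-1 peaks on X (51.9%) were shared with DPL-1, against 1542 of 1986 (77.6%) on the autosomes, so the lower share on X was present with LIN-35 too.

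At the shared regions of X, EFL-1 often ranked far above DPL-1. By percentile within the whole lists, EFL-1 was the higher in 9 of 19 E2F-DP regions on X (47.4%) and in 64 of 696 on the autosomes (9.20%), where the share over all 715 regions was 10.2%. That contrast depends on the length of the lists, because the many low DPL-1 peaks without EFL-1 lift the percentiles of shared DPL-1 peaks. Ranked among the 715 regions alone, EFL-1 was the higher in 11 of 19 regions on X and in 347 of 696 (49.9%) on the autosomes. The size of the difference did not depend on it in this way. EFL-1 stood more than 30 points above DPL-1 in 9 of the 19 regions on X by either ranking, in 0 of 696 autosomal regions by whole-list percentile, and in 1 by rank among the regions. That exception, chosen for mention after its value was seen, was at *tkt-1* on chromosome IV, with a difference of 30.8 points.

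The 9 regions on X were of a narrow kind. Their EFL-1 percentiles within the list ran from 66.8 to 82.9 and their DPL-1 percentiles from 8.94 to 43.1, so the ranges did not overlap, which follows in part from how the regions were chosen. The largest difference was at chrX:16056226-16056815, with a signal value of 358 for DPL-1 (percentile 8.94) and 2221 for EFL-1 (percentile 68.5). At chrX:2996796-2997385 the values were 426 (20.9) and 2255 (68.7), and at chrX:13700503-13701092 they were 463 (26.0) and 2457 (70.5). At chrX:8036097-8036885 they were 445 (23.5) and 2129 (67.6), and at chrX:806391-806980 they were 450 (24.3) and 2030 (66.8). None of these 5 overlaps a gene-named site, and among the 9 only 2 do.

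The same 9 regions differed from the remaining shared regions of X in several lists that did not choose them. All 9 had a wild-type EFL-1 peak, at percentiles from 79.8 to 89.7, and 5 had a wild-type DPL-1 peak, at percentiles from 4.07 to 26.1. At these 5, EFL-1 ranked far above DPL-1 with LIN-35 present as well, and the other 4 had no wild-type DPL-1 peak to rank. Wild-type LIN-35 peaks overlapped 2 of the 9, at percentiles of 3.27 and 15.2, against 9 of the other 10 shared regions on X. No wild-type LIN-54 peak overlapped any of the 9, against 9 of the other 10 and 96.1% of all 715 E2F-DP regions. Other MuvB subunits were present in wild type. LIN-52 peaks overlapped all 9 and 9 of the other 10, LIN-37 peaks 5 and 8, and LIN-9 peaks 4 and 9. Without LIN-35, LIN-9 and LIN-52 peaks overlapped all 9, at median percentiles of 54.7 and 36.8, and LIN-54 peaks overlapped 7. LIN-9, LIN-52, and LIN-54 peaks without LIN-35 overlapped 5, 4, and 4 of the other 10, and 96.5%, 94.8%, and 92.7% of all 715 E2F-DP regions. They overlapped 92.4%, 80.2%, and 72.3% of all 1610 merged regions, which were built in part from these same lists. Over the 725 autosomal pairs the Spearman correlation of DPL-1 with EFL-1 was 0.94, and over the 20 pairs on X it was 0.31. In wild type it was 0.93 over 1489 autosomal pairs and 0.54 over 67 pairs on X, so it was lower on X with LIN-35 too.

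**Figure D5:**
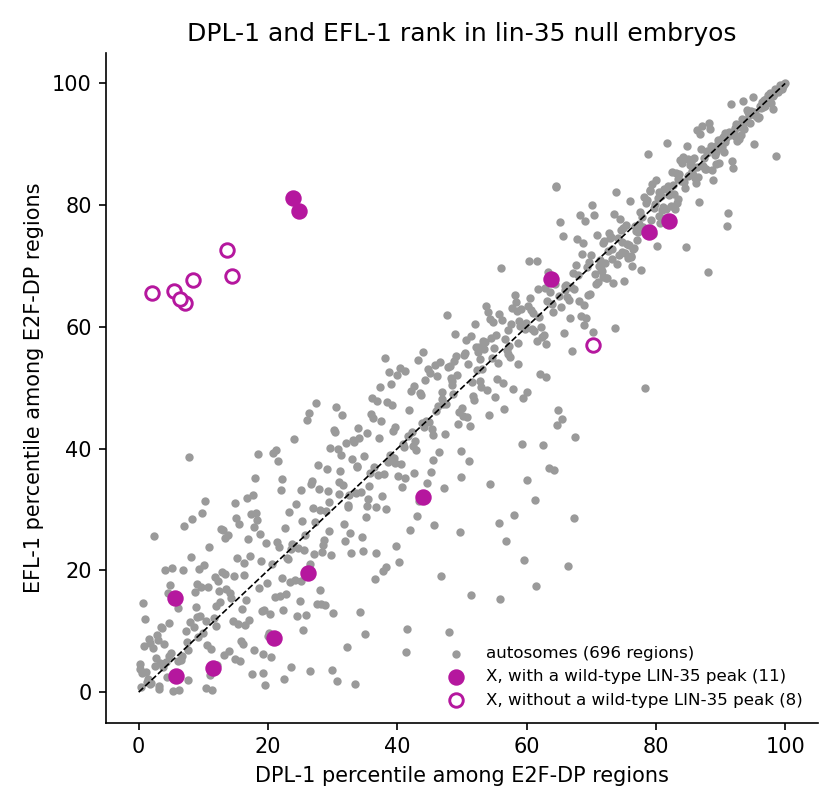
EFL-1 percentile (vertical axis) against DPL-1 percentile (horizontal axis), both ranked among the 715 E2F-DP regions in *lin-35* null embryos, for autosomal regions (grey) and regions on X with (filled) or without (open) a wild-type LIN-35 peak. The dashed line marks equal ranks; 9 of the 19 regions on X lie more than 30 points above it, and 7 of these have no wild-type LIN-35 peak.

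The opposite difference was found at *smc-4*, *mix-1*, *htz-1* with *wapl-1*, *eef-2*, and *zig-7*. These 5 regions, where DPL-1 ranked farthest above EFL-1 by percentile within the whole lists, were autosomal. The first was the divergent promoter of *smc-4*, a condensin subunit, and *F35G12.7* (chrIII:4587052-4587641), with a signal value of 1987 for DPL-1 (percentile 75.8) and 659 for EFL-1 (23.9). The second was that of *mix-1*, also a condensin subunit, and *R06F6.12* (chrII:10823903-10824492), with 1679 (72.2) and 617 (20.4). At *htz-1*, which encodes a histone variant of the H2A family, and *wapl-1*, a factor that releases cohesin (chrIV:4445582-4446171), the values were 1422 (68.1) and 597 (18.4). They were 1105 (62.1) and 545 (12.4) at *eef-2*, a translation elongation factor, and *F25H5.5* (chrI:9163213-9163802). At *zig-7*, of the immunoglobulin superfamily (chrI:4789738-4790327), they were 957 (57.0) and 511 (7.92).

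The partners ranked close together in wild type at these regions. The regions were chosen by their difference without LIN-35, so a smaller difference in wild type follows in part from that choice. Ranked among the 1533 wild-type regions with both partners, 19 regions had DPL-1 more than 30 points above EFL-1. At *smc-4* the wild-type percentiles were 81.9 for DPL-1 and 82.4 for EFL-1, at *mix-1* 82.0 and 81.8, and at *eef-2* 97.7 and 96.5. Ranked among the 715 regions alone, 11 regions had DPL-1 more than 30 points above EFL-1. All 11 were autosomal, had a gene-named site, a wild-type LIN-35 peak, and peaks of all 4 MuvB subunits without LIN-35, traits that 97.3%, 90.8%, 94.1%, and 84.8% of all 715 E2F-DP regions had. Their DPL-1 percentiles in the list ran from 50.7 to 76.5 and their EFL-1 percentiles from 2.04 to 32.1. In the wild-type lists they ran from 70.8 to 97.7 for DPL-1 and from 69.4 to 96.5 for EFL-1, so these groups overlapped with LIN-35 and did not overlap without it. The lack of overlap without LIN-35 follows in part from how the regions were chosen.

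Genes of the DRM target pathways were read from lists of genes, counted over those with a wild-type DRM site assigned by the study. Of all 1761 genes with such a site, 859 (48.8%) kept both E2F-DP partners there without LIN-35. Of 6 genes of DRM subunits with a site, 5 kept both. They included *efl-1* itself (percentile 93.7 for DPL-1 and 80.6 for EFL-1), *lin-53*, a histone-binding MuvB subunit (76.0 and 64.4), *lin-35* (72.7 and 55.4), and *lin-9* (41.5 and 19.2). The site of *dpl-1* kept neither. Genes with a site in a DRM list had wild-type peaks by construction, so these counts describe retention only.

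Cell cycle and chromosome segregation genes kept both partners at 34 of 43 (79.1%) and DPL-1 alone at 4, where DPL-1 alone was found at 202 of all 1761 genes (11.5%). The highest were *hcp-1*, a kinetochore protein (93.1 for DPL-1 and 92.0 for EFL-1), and *csc-1*, of the chromosomal passenger complex (90.8 and 93.6). The lowest that kept both were *zen-4*, a mitotic kinesin (2.61 and 3.83), and its partner in the central spindle, *cyk-4* (1.61 and 5.36). Both had high wild-type sites, with DPL-1 percentiles of 67.7 and 87.4. The centriole genes *sas-5* and *sas-6*, *spd-2*, and the cohesin gene *smc-3* had DPL-1 alone, and were named after their values were seen because they are the 4 of that kind. The 34 include *air-1* (40.3 for DPL-1 and 27.8 for EFL-1) and *kbp-3* (36.6 and 3.70, near the end of the EFL-1 list). The study placed both genes among targets where it detected neither E2F-DP nor MuvB without LIN-35. Its others, *rad-51* and *mes-4*, kept neither partner here. The difference in calls was not tested.

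DNA replication genes kept both partners at 14 of 20 (70.0%) and DPL-1 alone at 2. The highest were *pri-2* (99.8 and 99.6) and *pcn-1*, the sliding clamp of DNA polymerase (98.7 and 96.2). The lowest by mean percentile were 2 subunits of the MCM replicative helicase, *mcm-3* (70.8 for DPL-1 and 24.9 for EFL-1) and *mcm-6* (69.6 and 32.6). At *mcm-2*, of the same complex, the percentiles were 94.3 and 92.8, and at *mcm-5* they were 76.5 and 32.1, so the 6 subunits *mcm-2* to *mcm-7* fell on both sides. Values of *mcm-2* and *mcm-5* were chosen for mention after they were seen. In wild type, *mcm-3* stood at 82.4 for DPL-1 and 87.3 for EFL-1, and *mcm-6* at 69.9 and 66.5.

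DNA repair and meiosis genes kept both partners least often of the 5 lists, at 4 of 15 (26.7%). Of the 15, 10 kept neither, beside 691 of all 1761 genes. Those that kept both were *atl-1*, the ATR checkpoint kinase (80 and 73.1), *brc-1*, the worm BRCA1 homolog (66.5 and 52.7), the translesion polymerase gene *polh-1* (70.6 and 44.1), and *polq-1*, whose site is shared with the kinetochore gene *him-10* (58.2 and 32.4). Chromatin genes kept both at 7 of 10 (70.0%). The highest were *mes-2* (99.2 and 98.7) and *set-21* (99.0 and 89.1), and the lowest *lin-36*, a synMuv B gene (27.4 and 20.7), and *mrg-1*, a chromodomain protein (61.6 and 36.9). The sites of *bub-1* and *lin-61* are the same divergent promoter, so these genes share their values. EFL-1 alone was found at no gene of these 5 lists and at 9 of all 1761 genes.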

How the data were processed

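The ChIP-seq libraries of DPL-1 and EFL-1 in *lin-35(n745)* late embryos, 3 for each protein, were grouped by GEO's labels. Reads were aligned by the authors to the ce10 build with Bowtie 1.1.2, allowing up to 2 alignments. Peaks were called with SPP, with input as the control, and filtered at an irreproducible discovery rate of 1% across replicates. Their processing notes also name deepTools 2.0. Each deposited list gives peaks of a single width and an SPP signal value that the authors made from the pooled libraries. The deposited summit offset was the middle of every peak, and the score, p-value, and q-value columns were not used. Read counts were not used here, so the depth is unknown.

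Each signal value was expressed as a percentile of its list. An overlap of at least 1 bp made peaks shared, regions were merged from overlapping peaks, and pairs were mutual nearest middles. Gene names came from the site-to-gene table of the study, by an overlap of at least 1 bp with its wild-type DRM sites, and 649 of 715 E2F-DP regions had a name. Of the 1761 gene names in that table, 1357 were found in the RefSeq gene table used here. Genes and regions named were the 20 with the highest mean percentile, the 5 with the largest difference in each direction, the 5 highest peaks without the partner in each list, and, from 5 gene lists, those with the highest and lowest mean percentile. The members and lists were chosen with earlier results of these data known. Tools were Python 3.11.15, numpy 2.4.6, scipy 1.17.1, and, for plots, matplotlib 3.10.9. The overlap steps were tested on simulated data. Alternatives changed the overlap, the peak width, the length and threshold of the lists, the scale of the correlation, and the number of MuvB subunits. Sequences and motifs were not analysed here, nor were input libraries or the LIN-35 libraries of *lin-35* null embryos.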

Additional observations from a re-analysis of the deposited data

How the results depend on the processing

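The 9 comparisons of the lists and 4 shares on X and the autosomes, the latter chosen after seeing the data, were recomputed under 62 alternatives, and 50 of these values stayed within the counting interval of the reported value (within 1.5 times for the number of regions). An overlap of 50% of the shorter peak and peaks of 200 bp moved no value outside it. With the DPL-1 list shortened to 783 peaks, 90.2% of DPL-1 and 91.1% of EFL-1 peaks were shared, the median percentile of DPL-1 peaks without EFL-1 was 9.96, and EFL-1 ranked higher in 47.6% of autosomal E2F-DP regions. Ranks among E2F-DP regions alone put that share at 49.9%. Without the lowest 25% of each *lin-35* null list, the median distance was 5 bp, the share with a wild-type LIN-35 peak 96.0%, and the median percentile of EFL-1 peaks without DPL-1 46.8, over 16 peaks, where it had been 13.5 over 29. The correlation was 0.94 as Pearson's of log10 signal and 0.94 on the autosomes, which was chosen after seeing the data. All 4 MuvB subunits were found at 84.8% of E2F-DP regions and at least 1 at 97.3%. No paired analysis was possible because each deposited list pools the libraries of its subunit, and for the same reason no library could be left out. The lists do not show read depth, so the limit of detection at a missing partner peak is unknown.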

Other observations

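Sites with E2F-DP peaks and no MuvB peak in *lin-35* null embryos were few and of mixed kinds. They were 19 regions with both partners, 32 with DPL-1 alone, and 11 with EFL-1 alone. Of the 32, 7 had a wild-type peak of DPL-1 and not of EFL-1, and 6 the reverse. Of the 11, 6 had a wild-type EFL-1 peak and no DPL-1 peak, and 0 the reverse. Wild-type LIN-35 peaks overlapped 18 of the 19, 18 of the 32, and 2 of the 11, beside 94.1%, 82.5%, and 35.7% of all regions of each kind. On X lay 5 of the 19, 6 of the 32, and 5 of the 11. Of all regions of each kind, 19 of 715, 16 of 229, and 13 of 28 were on X. Their median percentiles within the *lin-35* null lists were 24.5 for DPL-1 and 12.9 for EFL-1 at regions with both, 10.5 at regions with DPL-1 alone, and 13.5 at regions with EFL-1 alone.

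Middles stayed close on X too. The median distance between DPL-1 and EFL-1 was 12.5 bp over 20 pairs on X and 6 bp over 725 autosomal pairs, and no pair on X was farther apart than 27 bp. Where 58 E2F-DP regions held more than 1 peak of a subunit, 28 held 2 peaks of each, 20 held 2 DPL-1 peaks and 1 EFL-1 peak, 9 held 1 DPL-1 peak and 2 EFL-1 peaks, and 1 held 3 of each.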
